A study of Homo sapiens with 7 samples.

Results

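The 37 genes described here are the cyclins and cyclin-dependent kinases that drive the cell cycle, the proteins that restrain these kinases, and the E2F factors with the pocket proteins that hold them in check. They were taken as a list of named rows of a count table with 60591 rows, and all 37 were found and passed the filter on low counts. Libraries came from the human line TE11, labelled as esophageal squamous carcinoma cells and grown in serum. The comparison is of 3 libraries of cells kept in the solvent alone (vehicle, 0.07% DMSO) with 4 libraries of cells given 200 µM diclofenac, each for 48 h. Diclofenac is an anti-inflammatory drug that blocks the cyclooxygenases. The labels do not state whether replicates were separate cultures. The p-values therefore reflect only the spread between these libraries, which may be technical.

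Entry into the cell cycle runs through a relay of kinases, each switched on by a cyclin partner. D-type cyclins with CDK4 or CDK6 act in G1 and begin to phosphorylate the pocket proteins RB1, RBL1 and RBL2. Cyclin E with CDK2 completes this step and frees E2F factors, which switch on genes of DNA synthesis, among them cyclin E itself. Cyclin A carries cells through S phase, and B-type cyclins with CDK1 start mitosis. The CDC25 phosphatases remove the inhibitory phosphates that WEE1 and PKMYT1 place on these kinases, while the CIP/KIP and INK4 proteins bind and block them.

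Total counts ran from 19878696 to 26490829 per library, and 3 of 9 fixed squamous and epithelial markers (SFN, CDH1 and EPCAM) reached 1 CPM (counts scaled to library size) in every library. The squamous genes KRT5, KRT14, KRT6A, TP63, KRT13 and DSG3 did not, and KRT6A had no count in any library. KRT13 had the most counts of them, only 5 over the vehicle libraries and 14 over the diclofenac libraries. These genes thus do not bear out the squamous label, and the identity of the line was not tested. The 9 markers summed to 6.30 to 6.46 normalized CPM under vehicle and 9.06 to 10.7 under diclofenac, and the 5 fibroblast markers, chiefly COL1A1, to 17.3 to 19.7 and 14.2 to 15.5. No endothelial or immune marker reached 1 CPM in every library. The part of these shifts in the results below was not tested. Because whole cultures were sequenced, fewer cells in a phase and fewer transcripts per cell cannot be told apart.

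Under diclofenac, transcripts of the cyclins and their kinases were lower as a group, whereas the restraints on them split in both directions. Of the 15 cyclins, kinases and CDC25 phosphatases, 13 fell and only CDC25B rose. Of the 12 inhibitors, inhibitory kinases and pocket proteins, 5 rose, 4 fell and 3 did not pass the test. The 8 E2F factors divided into 4 that rose, 3 that fell and E2F5, which did not pass. Among all tested genes in the same range of expression, 28.7% were called higher and 38.1% lower. Calls in both directions are therefore not particular to the restraints or the E2F factors. Calls rest on the edgeR quasi-likelihood test after TMM scaling, with Benjamini-Hochberg adjustment over all tested genes and a threshold of 0.05.

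In all, 21 of the 37 genes fell (56.8%), 11 rose (29.7%) and 5 did not pass. Calls were common in these libraries: 59.7% of the 18311 tested genes were called, 29.5% as lower and 30.2% as higher. The 37 genes are well expressed, with means from 2.01 to 8.39 log2 CPM. Among the 12080 tested genes within that range, 38.1% were called lower and 28.7% higher. The share that rose is therefore near the background, while the share that fell is above it. The median log2 fold change was -0.25 over the 37 genes, 0.02 over all tested genes and -0.04 over those in the same range. The changes were modest, and only 5 of the 37 passed 1.5-fold. Libraries of the groups did not overlap for 31 of the 37 genes (83.8%), against 58.5% of all tested genes. That share was not computed for genes in the same range of expression.

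Directions are relative to the bulk of genes. With total counts alone as the scale, the median change over all tested genes was higher by 0.18 (log2), and 15 of the 37 genes were then called higher and 15 lower. Over all tested genes the shares on that scale were 47.2% higher and 16.5% lower. The members' lower calls were above that share and their higher calls were not. Shares among genes in the same range of expression were not computed for this scale or for upper-quartile factors. By total counts CCNB2, E2F4 and E2F5 changed sign, at log2 fold changes of 0.01, 0.03 and 0.13. The falls of CDKN1C, E2F8, CDC25A and CCNB1 kept their sign there but no longer passed (adjusted p of 0.0912, 0.155, 0.104 and 0.179). CCND2, CDKN2D, CDKN3 and RBL1 then passed as higher (adjusted p of 0.000182, 0.0240, 0.000323 and 0.000272). With upper-quartile factors 14 of the 37 genes were called higher and 19 lower, against 38.2% and 22.8% of all tested genes. CCNB2 and E2F4 then no longer passed (adjusted p of 0.227 and 0.182), and CCND2, CDKN3 and RBL1 passed as higher (0.00303, 0.00682 and 0.00322). A change of scaling factors shifts all genes alike. The gap of -0.27 between the median of the 37 genes and that of all tested genes was therefore bound to stay the same, and is no check on the scaling. Of the 37 genes, 22 kept their call and direction under every alternative tried, 15 of them lower and 7 higher. The lower ones were CCND1, CCND3, CCNE1, CCNE2, CCNA2, CDK1, CDK2, CDK4, CDK6, CDC25C, CDKN2A, CDKN2C, PKMYT1, E2F1 and TFDP1. Those higher throughout were CDKN2B, WEE1, RBL2, E2F2, E2F3, E2F7 and TFDP2.

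**Figure D1:**
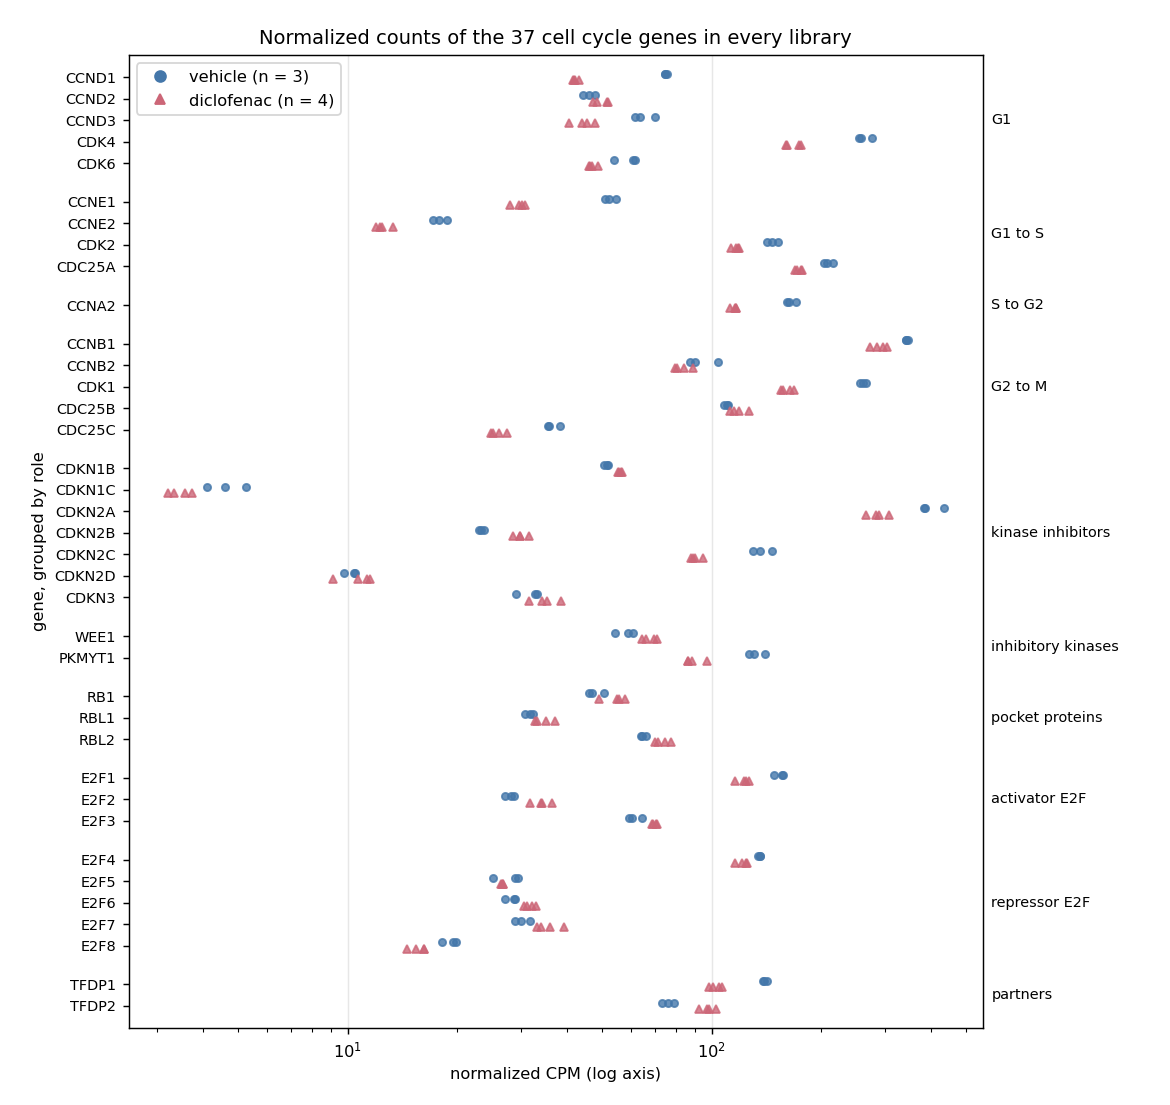
Normalized CPM (log axis) of each of the 37 genes in the 3 vehicle libraries (circles) and the 4 diclofenac libraries (triangles), grouped by role. The libraries of the groups do not overlap for 31 genes, and CCND1, CCNE1 and CDK1 show the widest gaps.

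**Figure D2:**
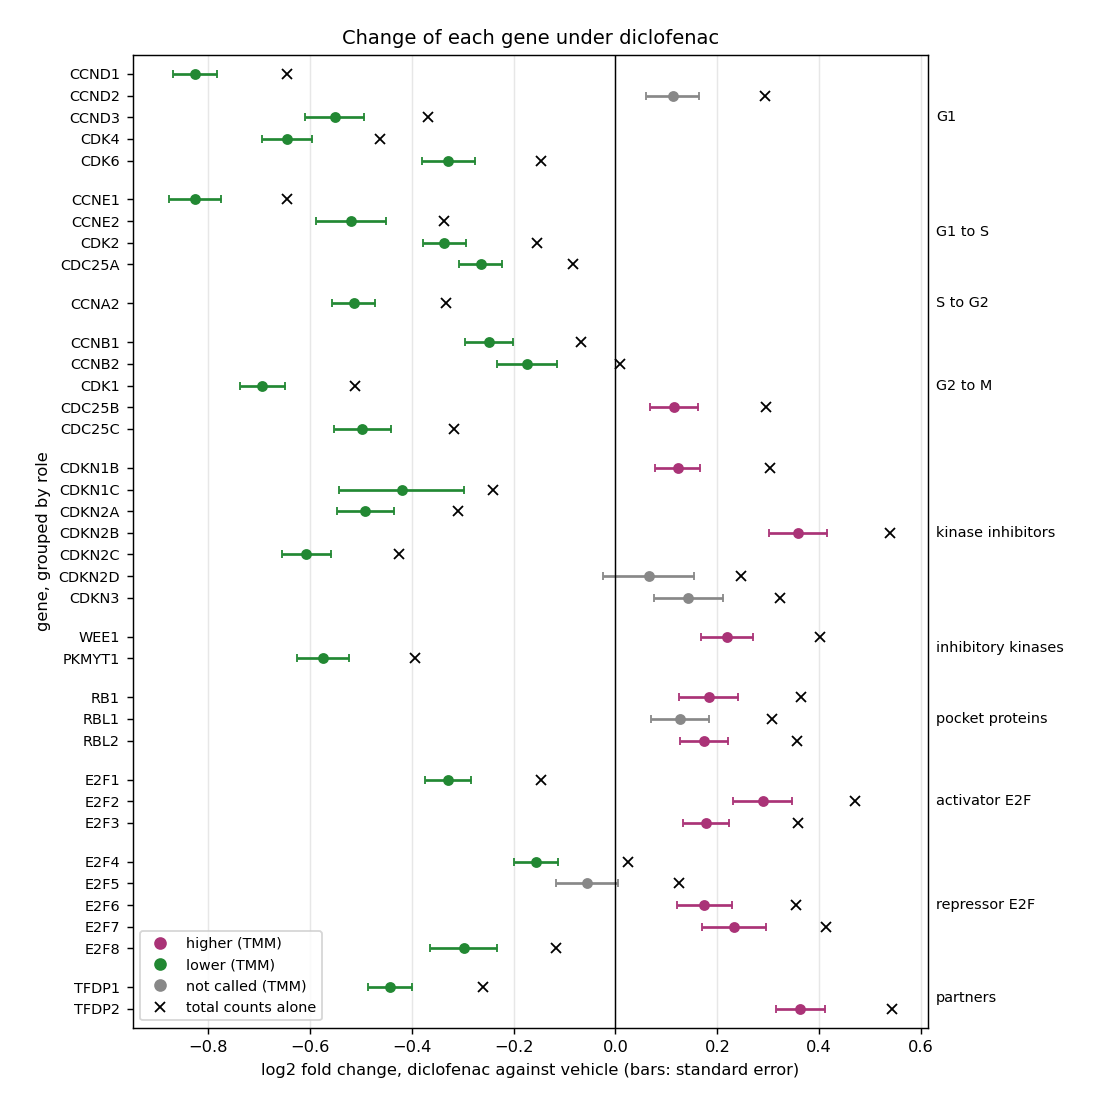
Log2 fold change of each gene, diclofenac against vehicle, with its standard error (bars) under TMM scaling, and the value under total counts alone (crosses). Most cyclins and kinases lie left of 0 on both scales; CCNB2, E2F4 and E2F5 cross it.

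The D-type cyclins, which couple growth signals to G1, did not move as 1 group. CCND1 stood at 75.5, 74.6 and 74.7 normalized CPM in the vehicle libraries and at 43.3, 41.7, 41.9 and 42.2 in the diclofenac libraries. All 4 diclofenac libraries lay well below all 3 vehicle libraries, and the replicates lay close together. The log2 fold change was -0.83 (SE 0.0434, adjusted p = 6.27e-11), a level 1.77-fold lower. The level of CCND3 was 65.1 ± 4.44 normalized CPM under vehicle (SD, n = 3) and fell to 44.5 ± 2.95 under diclofenac (SD, n = 4), with a log2 fold change of -0.55 (SE 0.0581). CCND2 went the other way without passing the test, at 44.4, 45.9 and 47.7 under vehicle and 51.8, 51.7, 48.3 and 47.2 under diclofenac (log2 fold change 0.11, adjusted p = 0.0690). Its groups overlapped, because diclofenac replicate 4 lay below vehicle replicate 3. The adjusted p was 0.0475 without diclofenac replicate 3 and 0.0381 without diclofenac replicate 4.

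Counts of CCND2 relative to CCND1 went from 0.614 under vehicle to 1.18 under diclofenac, a ratio that does not depend on scaling between libraries and was picked after its values were seen. Per exon length their order was the same in both groups, with CCND1 at 37.8 ± 1.17 and CCND2 at 15.7 ± 0.859 TPM under vehicle, and at 24.6 ± 1.16 and 19.5 ± 1.58 TPM under diclofenac. Both kinases of G1 fell. CDK4, a partner of the D-type cyclins, went from 254, 276 and 257 to 176, 174, 161 and 160 normalized CPM. The lowest vehicle library lay far above the highest diclofenac library (log2 fold change -0.65, SE 0.0489, adjusted p = 4.98e-09). CDK6, its close relative, fell from 58.9 ± 4.14 to 46.9 ± 1.18 (log2 fold change -0.33, SE 0.0520). CCND1 fell more than CDK4: their log2 ratio moved from -1.81 ± 0.0703 to -1.99 ± 0.0659, with no overlap (exact two-sided permutation p = 0.0286, the smallest that 35 splits allow; 0.0429 adjusted over 6 ratios). CDK4 shares 43.2% of its exon bases with TSPAN31 on the opposite strand, whose counts came to 10.8% of those of CDK4 and rose (log2 fold change 0.28).

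Both E-type cyclins, which activate CDK2 at the start of S phase, fell. CCNE1 stood at 54.6, 52.2 and 51.0 normalized CPM under vehicle and at 29.6, 28, 30.8 and 30.2 under diclofenac. No diclofenac library came near a vehicle library, and the log2 fold change, -0.83 (SE 0.0512, adjusted p = 4.39e-10), matched that of CCND1. CCNE2 fell from 17.9 ± 0.809 to 12.5 ± 0.569 (log2 fold change -0.52, SE 0.0686). The log2 ratio of CCNE1 to CCNE2 dropped from 1.55 ± 0.101 to 1.25 ± 0.0965 (exact two-sided permutation p = 0.0286, adjusted 0.0429). INTS8 overlaps 37.0% of the exon bases of CCNE2 on the opposite strand, with counts 572% of those of CCNE2, and fell by 0.27 on the log2 scale. The sources used here do not state whether counting used the strand, so the share of INTS8 reads in CCNE2 was not tested.

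CDK2, the kinase of cyclins E and A, and CDC25A, the phosphatase that activates it, changed less than their cyclins. CDK2 went from 142, 152 and 147 to 113, 119, 118 and 117 normalized CPM (log2 fold change -0.34, SE 0.0424). CDC25A went from 209 ± 6.02 to 174 ± 3.17 (log2 fold change -0.26, SE 0.0423, adjusted p = 3.48e-05), and its groups did not overlap. CCNA2, the cyclin A of dividing somatic cells, fell from 161, 163 and 171 to 117, 117, 112 and 116 normalized CPM. The diclofenac libraries lay close together and far from the vehicle libraries (log2 fold change -0.51, SE 0.0425, adjusted p = 1.46e-08).

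At the step into mitosis the kinase fell more than its cyclins. CDK1 went from 256, 260 and 266 normalized CPM to 168, 164, 157 and 155, with every diclofenac library below every vehicle library (log2 fold change -0.69, SE 0.0443, adjusted p = 6.26e-10). CCNB1, the cyclin B that takes CDK1 into mitosis, went from 342, 346 and 342 to 272, 285, 303 and 296 (log2 fold change -0.25, SE 0.0467, adjusted p = 0.000185). The groups did not overlap, but the diclofenac libraries were more spread. Counts of CCNB1 relative to CDK1 were higher in every diclofenac library, with a mean ratio of 1.32 under vehicle and 1.80 under diclofenac, a pair picked after its values were seen. CCNB2, the cyclin B tied to the Golgi, stood at 87.0, 104 and 89.9 under vehicle and 79.2, 83.8, 80.1 and 88.8 under diclofenac. Its groups overlapped, since diclofenac replicate 4 lay above vehicle replicate 1. Its fall (log2 fold change -0.17, SE 0.0590, adjusted p = 0.0176) was lost without vehicle replicate 2, the highest library, at -0.10 and an adjusted p of 0.155.

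The promoters of these genes are shown because those of the B-type cyclins and CDK1 hold both cell cycle homology words and CCAAT boxes. They are RefSeq sequences (GRCh38.p14), from 140 bases before the start of the gene to 40 after it, with capitals on the cell cycle homology words TTTGAA and TTTAAA, the CCAAT box and the E2F words listed below, on either strand. CCNB1 lies at chr5:69167010-69167189 on the plus strand, CCNB2 at chr15:59105006-59105185 on the plus strand, and CDK1 at chr10:60778338-60778517 on the plus strand. For CDK1, 2 starts are listed, and the window with the most CCAAT boxes is shown. What it shares with the B-type cyclins was therefore partly fixed by that choice.
CCNB1: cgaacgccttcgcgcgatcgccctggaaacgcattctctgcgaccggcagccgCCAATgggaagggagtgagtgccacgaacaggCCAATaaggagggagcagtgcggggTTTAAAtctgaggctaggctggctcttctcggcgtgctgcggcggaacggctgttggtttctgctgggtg
CCNB2: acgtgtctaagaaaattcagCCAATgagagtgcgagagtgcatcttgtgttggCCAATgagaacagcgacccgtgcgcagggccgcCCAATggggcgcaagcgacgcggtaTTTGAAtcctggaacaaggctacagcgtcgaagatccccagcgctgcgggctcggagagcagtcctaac
CDK1: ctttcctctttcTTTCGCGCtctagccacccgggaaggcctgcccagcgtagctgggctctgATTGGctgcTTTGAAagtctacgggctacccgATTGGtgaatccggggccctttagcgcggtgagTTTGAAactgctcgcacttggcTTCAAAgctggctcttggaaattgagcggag
CCNB1 and CCNB2 each hold a homology word about 30 bases before the start (first base at -30 and -29) with evenly spaced CCAAT boxes further up, at -87 and -55 in CCNB1 and at -120, -87 and -54 in CCNB2. CDK1 holds TTTGAA at -69 and -13 and its reverse complement at 10, with CCAAT boxes, read on the other strand, at -78 and -46, and an E2F word at -128. Of the 28 genes with a matched promoter, 11 (39.3%) had TTTGAA or TTTAAA in at least 1 window of 300 bases. The share was 21.3% of the 11456 tested genes with a matched promoter. CCAAT was found in 17 (60.7%), against 43.0%. Of the 11 genes with a homology word, 5 fell, 5 rose and CDKN3 did not pass. Among all 37 genes 56.8% fell and 29.7% rose, and over all tested genes 29.5% and 30.2%. Whether the word bears on the direction was not tested. A match is only a run of letters, and genes with several listed starts had more windows to match in.

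The CDC25 phosphatases of G2 diverged. CDC25C fell from 35.6, 38.3 and 35.7 to 24.7, 25.1, 27.4 and 26.1 normalized CPM, all clearly below the vehicle libraries (log2 fold change -0.50, SE 0.0557, adjusted p = 5.81e-07). FAM53C overlaps 8.78% of the exon bases of CDC25C on the opposite strand, with counts 475% of those of CDC25C and a log2 fold change of 0.11 that did not pass (adjusted p = 0.0783). CDC25B, the member of the family that first activates CDK1 in late G2, was higher by only 0.11 on the log2 scale (SE 0.0478, adjusted p = 0.0471). It went from 110, 108 and 111 to 115, 112, 127 and 119, and the lowest diclofenac library lay just above the highest vehicle library. This call was lost without any 1 vehicle library (adjusted p of 0.118, 0.154 and 0.0928 without replicates 1, 2 and 3) and without diclofenac replicate 3 or 4 (0.125 and 0.0800). It was also lost by the DESeq2 Wald test (0.0958).

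Summed over the genes of a phase, the G1 cyclins and kinases went from 507 ± 5.55 to 351 ± 14.6 normalized CPM, a change of -30.8%. The G1 to S sum, which includes E2F1, E2F2 and E2F3, went from 670 ± 12.2 to 559 ± 3.83 (-16.6%), and the G2 to M sum from 844 ± 13.5 to 677 ± 16.1 (-19.7%). CCNA2, standing for S to G2, changed by -30.0%. On the log2 scale the changes were -0.53 for G1, -0.26 for G1 to S, -0.51 for S to G2 and -0.32 for G2 to M. By total counts alone they were smaller, at -0.35, -0.079, -0.33 and -0.14 in the same order. These sums are descriptions and weigh the most abundant genes most.

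**Figure D3:**
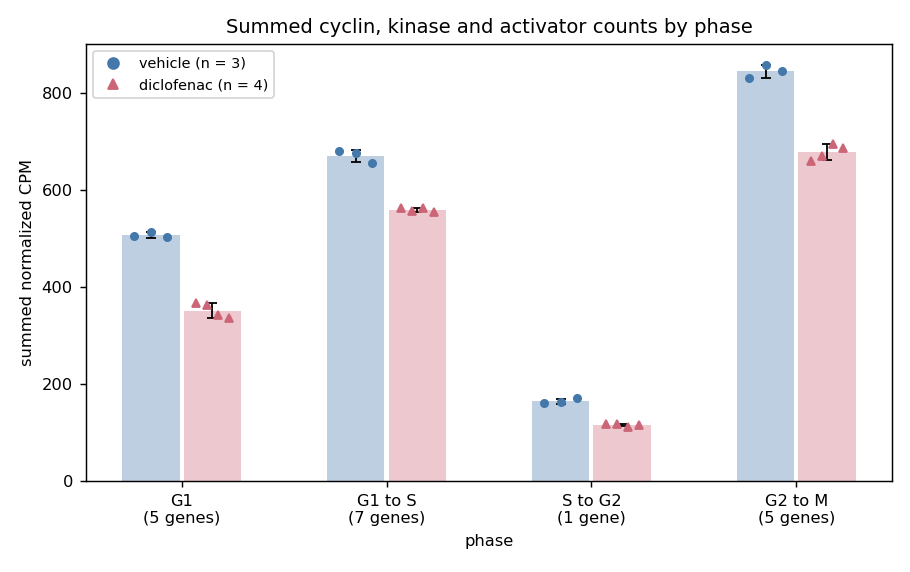
Summed normalized CPM (linear axis from 0) of the cyclins, kinases and activators of each phase, with the mean (bar), SD (error bar) and every library (points). With this TMM scaling the 4 diclofenac libraries lie below the 3 vehicle libraries in each phase; by total counts alone the log2 change was -0.079 for G1 to S and -0.14 for G2 to M.

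Among the direct inhibitors of the kinases, the INK4 family, which blocks CDK4 and CDK6, went in both directions. CDKN2A, which encodes p16 and in another reading frame ARF, was the most abundant of the 37 genes by normalized CPM, at 435, 383 and 387 under vehicle. It stood at 288, 265, 308 and 283 under diclofenac, with all 4 libraries below the vehicle range (log2 fold change -0.49, SE 0.0565, adjusted p = 8.00e-07). A count per gene cannot separate its transcripts. CDKN2C (p18) fell from 147, 136 and 130 to 89.8, 89.1, 94.5 and 88.0 (log2 fold change -0.61, SE 0.0479, adjusted p = 8.15e-09), again without overlap. CDKN2D (p19) stood at 10.4, 10.5 and 9.75 under vehicle and at 10.7, 11.3, 11.5 and 9.11 under diclofenac and did not pass (adjusted p = 0.550).

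CDKN2B (p15), the neighbour of CDKN2A in the genome, rose. It stood at 23.7, 22.9 and 23.3 normalized CPM under vehicle and at 29.8, 29.7, 31.5 and 28.4 under diclofenac, with a clear gap between the groups (log2 fold change 0.36, SE 0.0564, adjusted p = 2.93e-05). Counts of CDKN2B relative to CDKN2A went from 0.0581 to 0.105, a pair picked after its values were seen. The antisense RNA of the locus, CDKN2B-AS1, rose as well (log2 fold change 0.66, adjusted p = 0.000262), and its counts came to 1.22% of those of CDKN2A.

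Of the CIP/KIP inhibitors, which act on CDK2 complexes, CDKN1B rose slightly and CDKN1C fell. CDKN1B (p27) stood at 51.6, 52.0 and 50.5 under vehicle and at 56.3, 55.2, 55.5 and 56.6 under diclofenac. The groups were separate but close, with a log2 fold change of 0.12 (SE 0.0441, adjusted p = 0.0239). That call was lost without vehicle replicate 1, 2 or 3 (adjusted p of 0.0629, 0.0537 and 0.0962) or diclofenac replicate 4 (0.0501), and by the DESeq2 Wald test (0.0846). Relative to CDK2, which fell, the shift was larger, and the log2 ratio of CDKN1B to CDK2 went from -1.52 ± 0.0486 to -1.06 ± 0.0433 (exact two-sided permutation p = 0.0286, adjusted 0.0429). CDKN1C (p57), the weakest of the 37 genes, fell from 4.59, 5.26 and 4.11 to 3.33, 3.20, 3.74 and 3.57 normalized CPM (log2 fold change -0.42, SE 0.123, adjusted p = 0.00682). CDKN3, a phosphatase that acts on the kinases themselves, was at 31.7 ± 2.26 and 34.9 ± 2.89 and did not pass (adjusted p = 0.0749), but did without diclofenac replicate 1 (0.0164).

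Of the kinases that hold CDK1 and CDK2 inactive, WEE1 rose and PKMYT1 fell. WEE1, in the nucleus, went from 60.8, 54.3 and 58.9 to 70.7, 69.4, 64.4 and 65.9 normalized CPM, each diclofenac library above each vehicle library (log2 fold change 0.22, SE 0.0516, adjusted p = 0.00136). PKMYT1, which is bound to membranes, went from 140, 131 and 127 to 96.9, 85.9, 88.1 and 86.0 (log2 fold change -0.57, SE 0.0510, adjusted p = 3.51e-08). PAQR4 covers 24.5% of the exon bases of PKMYT1 on the opposite strand, with counts 34.9% of its own, and fell by 0.53. The log2 ratio of WEE1 to its opponent CDC25C went from 0.67 ± 0.144 to 1.39 ± 0.128, the widest shift among the 6 fixed ratios (exact two-sided permutation p = 0.0286, adjusted 0.0429).

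**Figure D4:**
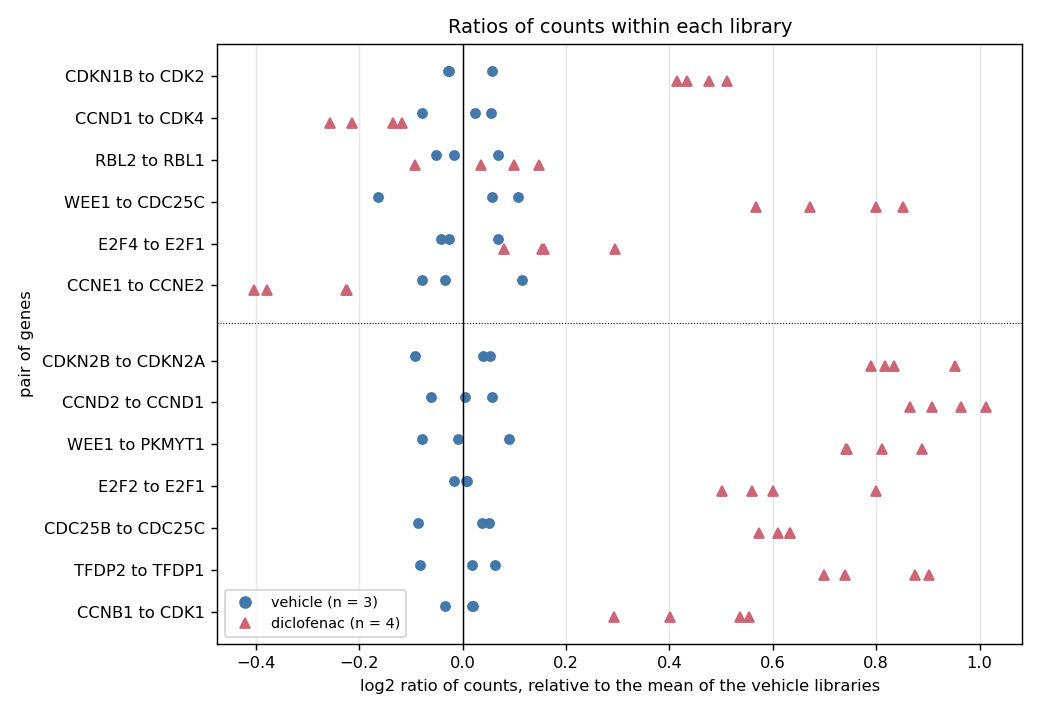
Log2 ratio of the counts of pairs of genes in each library, relative to the mean of the vehicle libraries (circles, n = 3; triangles, diclofenac, n = 4). The 6 fixed pairs are above the dotted line and 7 pairs picked after their values were seen are below it. RBL2 to RBL1 is the only pair whose groups overlap.

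The pocket proteins, which bind E2F and silence its targets, were slightly higher or did not pass. RB1 stood at 46.0, 46.8 and 50.7 normalized CPM under vehicle and at 54.8, 57.9, 49.0 and 55.5 under diclofenac. Its groups overlapped through diclofenac replicate 3 (log2 fold change 0.18, SE 0.0583, adjusted p = 0.0116), and the call was lost without vehicle replicate 1 or 2 (0.0723 and 0.0604). RBL2 (p130), the pocket protein of resting cells, rose from 64.3, 66.0 and 64.1 to 77.2, 71.4, 69.8 and 74.4 with no overlap (log2 fold change 0.17, SE 0.0471, adjusted p = 0.00400). RBL1 (p107), itself an E2F target, was at 31.6 ± 0.855 and 34.5 ± 2.00 with a log2 fold change of 0.13 and an adjusted p of 0.0615. It passed without diclofenac replicate 3 or 4 (0.0391 and 0.0361). The log2 ratio of RBL2 to RBL1 was 1.04 ± 0.0614 and 1.08 ± 0.104, with overlap (exact two-sided permutation p = 0.514).

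The activator E2F factors, which switch on S phase genes, split. E2F1, the most abundant of the 3, fell from 156, 157 and 148 to 124, 116, 127 and 123 normalized CPM (log2 fold change -0.33, SE 0.0452, adjusted p = 6.66e-06). E2F2 rose from 28.1, 28.7 and 27.0 to 34.3, 36.5, 34.0 and 31.7 (log2 fold change 0.29, SE 0.0578, adjusted p = 0.000330). E2F3 rose from 64.5, 59.4 and 60.6 to 70.7, 68.9, 70.2 and 68.6 (log2 fold change 0.18, SE 0.0455, adjusted p = 0.00267). None of the 3 had overlapping groups. Counts of E2F2 relative to E2F1 went from 0.182 to 0.278, a pair picked after its values were seen.

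Their promoters are shown because each holds an E2F word, a run of letters that E2F factors can bind, although the 3 genes went different ways. CDC25A, which fell, is set beside them. For E2F3, 2 starts are listed, and the window with the most words is shown, E2F words counting most. Its E2F word was therefore partly fixed by that choice. Capitals mark TTTCCCGC, TTTGGCGC, TTTCGCGC or TTTGCCGC on either strand, in the same window of RefSeq sequence (GRCh38.p14), and other words are left in lower case. E2F1 lies at chr20:33686346-33686525 on the minus strand, E2F2 at chr1:23531194-23531373 on the minus strand, E2F3 at chr6:20401739-20401918 on the plus strand and CDC25A at chr3:48188378-48188557 on the minus strand, each written in the sense of its gene.
E2F1: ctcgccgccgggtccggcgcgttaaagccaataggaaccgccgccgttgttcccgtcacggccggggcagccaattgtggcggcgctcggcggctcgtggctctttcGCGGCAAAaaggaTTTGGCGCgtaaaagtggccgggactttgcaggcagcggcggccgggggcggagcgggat
E2F2: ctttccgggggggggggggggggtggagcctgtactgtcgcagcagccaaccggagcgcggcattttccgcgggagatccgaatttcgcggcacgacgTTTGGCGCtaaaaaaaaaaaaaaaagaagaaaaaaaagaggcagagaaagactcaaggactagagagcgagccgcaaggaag
E2F3: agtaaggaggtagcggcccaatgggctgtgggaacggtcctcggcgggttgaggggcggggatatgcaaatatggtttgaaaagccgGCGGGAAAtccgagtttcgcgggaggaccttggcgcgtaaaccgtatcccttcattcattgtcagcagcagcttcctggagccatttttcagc
CDC25A: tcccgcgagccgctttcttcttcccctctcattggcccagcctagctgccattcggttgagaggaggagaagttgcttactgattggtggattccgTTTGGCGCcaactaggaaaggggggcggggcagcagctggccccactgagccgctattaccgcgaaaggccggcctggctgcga
The word TTTGGCGC stands at -20 in E2F1, at -42 in E2F2 and at -44 in CDC25A, counted to its first base. E2F1 holds another E2F word, GCGGCAAA, at -33 and E2F3 holds GCGGGAAA at -53, both read on the opposite strand. An E2F word was found in 7 of the 28 genes with a matched promoter (25%), against 6.56% of tested genes with one. Per window the shares were 17.8% of 45 and 4.77% of 16754, and 3.31% of all 35116 windows kept for matching. Of the 7, CDC25A, CDK1, E2F1 and TFDP1 fell, E2F2 and E2F3 rose, and RBL1 did not pass. The shares were 56.8% lower and 29.7% higher among all 37 genes, and 29.5% and 30.2% over all tested genes. Whether the E2F word bears on the direction was not tested. No promoter window was matched for CCND1, CCND2, CCNE2, CDK2, CDKN1C, WEE1, PKMYT1, E2F5 and E2F8. Whether each lacked an entry or was left out before matching was not separated. All shares of promoter words given here cover only the windows kept for matching.

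The repressor E2F factors were just as divided. E2F4, which with RBL2 silences cell cycle genes in resting cells, fell from 134, 136 and 136 to 116, 125, 124 and 121 normalized CPM (log2 fold change -0.16, SE 0.0429, adjusted p = 0.00442), a fall absent by total counts alone. The log2 ratio of E2F4 to E2F1 was -0.19 ± 0.0599 and -0.01 ± 0.0895 (exact two-sided permutation p = 0.0571, adjusted 0.0686). E2F5, its close relative, was at 27.7 ± 2.30 and 26.6 ± 0.211 and did not pass (adjusted p = 0.440). E2F6, which acts without pocket proteins, rose from 28.1 ± 1.00 to 31.7 ± 1.05 (log2 fold change 0.17, SE 0.0540, adjusted p = 0.0101), and the call was lost without vehicle replicate 3 (0.0651). Its 4 pseudogene rows held counts equal to 29% of its own, so reads may have been split between them.

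E2F7 and E2F8, the atypical factors that act as a pair to repress E2F1 targets, went opposite ways. E2F7 rose from 30.0, 28.9 and 31.8 to 33.9, 39.3, 33.2 and 35.9 (log2 fold change 0.23, SE 0.0629, adjusted p = 0.00388). E2F8 fell from 19.8, 19.5 and 18.2 to 16.2, 16.2, 14.6 and 15.4 (log2 fold change -0.30, SE 0.0661, adjusted p = 0.000837). Neither overlapped between the groups. The DP proteins, which pair with E2F to bind DNA, also diverged. TFDP1, the chief partner, went from 142, 138 and 139 to 105, 107, 101 and 98.4 normalized CPM (log2 fold change -0.44, SE 0.0433, adjusted p = 1.14e-07). TFDP2 went from 72.9, 76.1 and 78.9 to 92.2, 97.2, 103 and 98.1 (log2 fold change 0.36, SE 0.0483, adjusted p = 4.51e-06). Relative to TFDP1, counts of TFDP2 moved from 0.544 to 0.949, another pair picked after its values were seen.

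**Figure D5:**
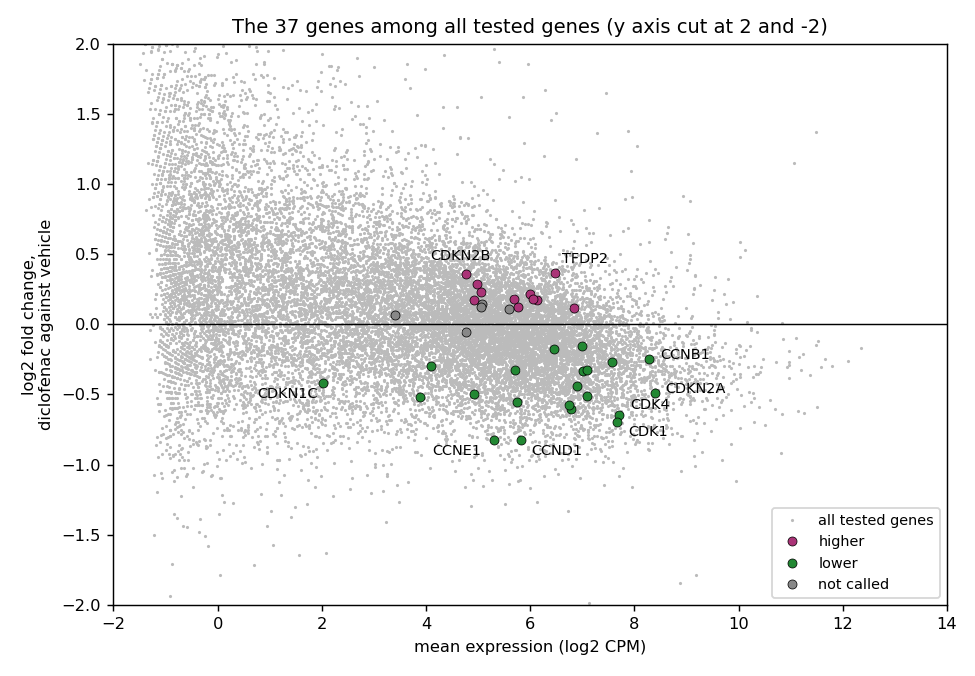
Log2 fold change against mean expression (log2 CPM) for all tested genes (grey) and the 37 genes, coloured by call. The 37 genes lie between 2.01 and 8.39 log2 CPM, with CCND1 and CCNE1 lowest at -0.83 and TFDP2 highest at 0.36.

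Per exon length, as TPM (counts scaled to exon length and library total) over the exons of GENCODE release 29, the levels in vehicle libraries ran from 4.56 ± 0.433 for CDKN1C to 327 ± 7.16 for CCNB1. CCNB1 was followed by CDKN2A at 226 ± 18.6, CDK4 at 202 ± 4.61, CDK1 at 161 ± 6.70, E2F1 at 149 ± 2.97 and CCNA2 at 144 ± 7.98 TPM. CDK2 stood at 92.1 ± 2.54 and CDK6 at 11.7 ± 1.13 TPM. E2F1 and CCNA2 lay within their spread of each other. With the median length of coding transcripts in place of all exons, CDKN2A, CDK4 and CCNB1 held the first places in that order, CDKN1C stayed last, and TFDP2 moved from rank 27 to rank 10. LTO1, EXOSC9, RBIS and AKTIP also overlap exons of CCND1, CCNA2, E2F5 and RBL2 on the opposite strand, with counts of 50.8%, 65.3%, 143% and 26.9% of theirs. The sources used here do not name the annotation behind the counts, so these levels are approximate.

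Other genes of the pathway, in lists chosen with earlier results of these data known, give the setting. Over all tested genes 29.5% were called lower and 30.2% higher, and no list was tested as a set. Of 20 genes that E2F factors switch on at the start of S phase, 19 fell, none rose and PCNA did not pass, with a median log2 fold change of -0.39. TK1, the thymidine kinase, changed most, from 268 ± 3.78 to 136 ± 6.97 normalized CPM. Of 22 genes that peak in G2 and mitosis, 16 fell, HMMR rose and 5 did not pass, with a median of -0.23. UBE2C, the ubiquitin enzyme of the anaphase-promoting complex, changed most, from 132 ± 3.77 to 62.9 ± 3.01 (log2 fold change -1.07). By total counts alone 14 of the 20 S phase genes fell and 1 rose, and 9 of the 22 fell and 5 rose. Over all tested genes 16.5% were lower and 47.2% higher on that scale.

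Of 13 partners and regulators of the cyclins and their kinases, ubiquitin ligase parts among them, 2 rose and 6 fell. Over all tested genes 30.2% were higher and 29.5% lower, and in the expression range of the 37 genes 28.7% and 38.1%. CDKN1A (p21), a CIP/KIP inhibitor, stood at 66.4 ± 1.92 normalized CPM under vehicle and rose to 113 ± 3.76 (log2 fold change 0.77, SE 0.0458), more than any inhibitor among the 37 genes. FBXW7, which marks cyclin E for destruction, rose by 0.34, and SKP2, which marks CDKN1B, fell by 0.21 on the log2 scale. CCNF, a cyclin that serves a ubiquitin ligase and binds no kinase, fell from 112 ± 4.20 to 62.0 ± 0.474. Of 8 MuvB, MYB and FOXM1 genes, which run the late cell cycle programme, 3 rose (LIN52, LIN54 and MYBL1) and 2 fell (RBBP4 and MYBL2). Both counts were near the shares over all tested genes. In these lists only TK1, UBE2C, CDKN1A, CCNF and LIN54 follow the rule for named genes, and the others were named after their values were seen. LIN54, the subunit that binds the homology word, rose from 21.1 ± 1.71 to 33.2 ± 1.41 (log2 fold change 0.66, SE 0.0631), and FOXM1 was at 179 and 186 normalized CPM and did not pass (adjusted p = 0.300).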

How the data were processed

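RNA from 7 libraries, 3 vehicle and 4 diclofenac, was sequenced after a directional library kit, per the labels' protocols. The authors deposited raw read counts per gene symbol, unscaled, as whole numbers. The submitters' processing notes name DESeq and the mouse build GRCm38, although the rows carry human symbols. For aligner, counter and strand setting, none is given in the sources used here. Both the 37 genes and the lists were chosen with earlier results of these data known.

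Genes were kept by filterByExpr (minimum count 10, total 15), leaving 18311 of 60591 rows with 99.86% of counts. They were scaled by TMM (factors 0.9197 to 0.9418 under vehicle, 1.039 to 1.073 under diclofenac) and compared by edgeR (version 4.0.16, under R 4.3.3) with its quasi-likelihood test, calls being made at a Benjamini-Hochberg adjusted p of 0.05. The test was tried on simulated counts first. Each standard error is the log2 fold change over the root of its F value. Normalized CPM are counts divided by the TMM-scaled library size, and 1 count was worth 0.0377 to 0.0503 CPM before scaling. Ratios within libraries were compared by exact permutation over 35 splits. Same-group libraries differed beyond sampling noise (chi-square per degree of freedom 2.17 to 7.40), so none was merged.

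TPM used union exon lengths of GENCODE release 29, matched for 93.3% of rows. Promoter windows of 300 bases came from RefSeq (GRCh38.p14), matched for 28 of the 37 genes. All 37 genes are named whatever their values, and from each list the called gene with the largest change and CDKN1A. Alternatives were other scalings, DESeq2 1.42.0, limma 3.58.1, other filters, a replicate block, no pseudogene rows and each library left out.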

Additional observations from a re-analysis of the deposited data

How the results depend on the processing

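By total counts alone 8635 genes were called higher and 3029 lower (47.2% and 16.5% of those tested). The median log2 fold change of the 37 genes was then -0.067, and the sign turned for CCNB2 (0.009), E2F4 (0.025) and E2F5 (0.125). On that scale the log2 changes of the phase sums, chosen after seeing the data, were -0.35 for G1, -0.079 for G1 to S, -0.33 for S to G2 and -0.14 for G2 to M. The lists then held 4 higher and 3 lower kinase partners and regulators, and 5 higher and 2 lower MuvB, MYB and FOXM1 genes. Among E2F targets of S phase 1 was higher and 14 lower, and among G2 to M genes 5 were higher and 9 lower. Among other cyclins and kinases 15 were higher and 3 lower. With upper-quartile factors the median was -0.16, and 14 of the 37 genes were higher and 19 lower. CCNB2 (-0.085) and E2F4 (-0.068) then no longer passed, and E2F5 stood at 0.032. In the lists 16 E2F targets of S phase were lower, 2 G2 to M genes were higher and 14 lower, and 3 other cyclins and kinases were lower. The median was -0.27 without a filter, -0.22 with a stricter filter, under which 2 G2 to M genes were higher, and -0.26 without pseudogene rows. With each library left out in turn it ran from -0.26 to -0.22, and 1 to 2 G2 to M genes were higher. The cause was not tested. The limma fit changed no call among the 37 genes.

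The correlations of same-numbered libraries were 0.083, -0.018 and -0.17, and those of differently numbered libraries ran from -0.166 to 0.183. These values gave no sign of pairing by number, but so few libraries cannot show that they were unpaired. With the number as a replicate block, 8 of the 37 genes were called higher and 21 lower, with a median of -0.26. Over all 18311 tested genes that fit called 4915 higher and 5003 lower. CDKN1B, RB1 and CDC25B no longer passed in it. No library of the 37 genes' groups stood apart by Dixon's criterion, which was applied to the 4 diclofenac libraries. CDKN1C, with 313 counts over the vehicle libraries, had the widest standard error of the 37 genes.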

Other observations

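Of 24 other cyclins and cyclin-dependent kinases, most with roles in transcription or outside the cell cycle, 23 were tested. Of these 8 rose, 5 fell and 10 did not pass, with a median log2 fold change of 0.09. The counts called were near the shares over all tested genes, 30.2% higher and 29.5% lower. CDK18, a kinase related to CDK16, changed most among those called, rising by 0.72 on the log2 scale.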
